A study of Homo sapiens with 6 samples.

Results

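Messenger RNA of A549 cells that carried a vector for malin was compared with that of A549 cells that carried an empty vector. A549 is an established line from a human lung adenocarcinoma. It has lost STK11, KEAP1 and CDKN2A function, as background knowledge of the line. The genes described are those with a mean of at least 5 FPKM (fragments scaled to transcript length and library size) over the A549 libraries, which held for 8599 of 19903 genes listed. The series has 6 libraries, from A549, H1299 (another lung carcinoma line) and a line labelled H2030 (the column heading of its malin library names another line, so that library's identity is uncertain), each with 1 empty-vector and 1 malin library, all labelled passage 5 and sequenced from total RNA. Both A549 libraries therefore share the line and the passage, and differ per the labels in whether the vector expresses NHLRC1. With 1 library per vector there is no replicate check: the vector and any difference between the individual cultures cannot be told apart, no p-value is given, and the labels do not say whether the lines are pools or single clones.

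Malin, the product of NHLRC1, is an E3 ubiquitin ligase that binds laforin, a glycogen phosphatase encoded by EPM2A. Loss of either protein causes Lafora disease, in which poorly branched glycogen accumulates in neurons and other cells. The pair has been linked to the turnover of glycogen synthase and of the subunits that target protein phosphatase to glycogen, and none of these steps is transcriptional. Several transcription programs that lung carcinoma cells use are described below. YAP and TAZ are coactivators of TEAD factors that respond to adhesion and cell shape and are held in check by the Hippo kinases. AP-1 is a family of FOS and JUN dimers induced by growth signals. NRF2 drives antioxidant and NADPH-making enzymes and is kept low by KEAP1, so its targets are abundant in A549.

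NHLRC1 itself stood at 1.21 FPKM in the empty-vector library and at 6.82 FPKM in the malin library. The malin library was thus the higher one, by an FPKM ratio of 5.64 with a 95% exact binomial interval of 3.69 to 8.74 on an estimated 27 and 152 fragments. That interval, like all below, is computed on estimated fragment numbers and covers counting error only. The mean of 4.015 FPKM left NHLRC1 outside the 8599 genes. In the H1299 pair the same gene was at 2.85 and 119.2 FPKM, so the malin library of A549 held far less NHLRC1 RNA than that of H1299. Gene-level values do not separate RNA of the insert from RNA of the resident gene, which lies at chr6:18120440-18122677 (GRCh38.p14). EPM2A, the laforin gene, was at 1.14 and 0.98 FPKM in A549, on an estimated 21 and 18 fragments, and its interval of 0.426 to 1.67 held 1.

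Several genes known to mark A549 had the levels that the label calls for in both libraries. CDKN2A was at 0.09 and 0 FPKM and CDKN2B at 0 and 0.03 FPKM, against 58.87 and 67.9 FPKM for CDKN2A in H1299. The NRF2 target AKR1B10 was at 1143.7 and 982.39 FPKM against 0.31 and 0.68 FPKM in H1299. Of the 15 genes used for this check 11 were among the 8599, and 9 of these were below 0 on the log2 scale defined below, with a median of -0.087. The sum over the 15 was 7882 FPKM in the empty-vector library and 6717 FPKM in the malin library. They include NRF2 targets and the keratins KRT8 and KRT18, which lists below also hold, and the part of this difference in other results was not tested. Alveolar surfactant genes were nearly silent, with SFTPB at 0 in both libraries and SFTPC at 0 and 0.11 FPKM. Most markers of other cell types were low in both libraries. Of 8 endothelial markers 7 were below 1 FPKM and their sum was 3.44 and 3.13 FPKM. Of 9 immune markers 6 were below 1 FPKM, and CD68 gave 11.48 and 11.82 FPKM of sums of 16.74 and 17.82 FPKM. Fibroblast markers summed to 13.19 and 14.87 FPKM over 9 genes, and 6 of them were below 1 FPKM. Neuronal markers summed to 158.62 and 194.36 FPKM over 9 genes, of which TUBB3, a beta-tubulin that carcinoma lines also express, gave 137.7 and 171.99 FPKM. SNAP25, at 11.54 and 14.82 FPKM, also passed the level filter and was likewise higher with malin. NEFL, outside the filter, was lower at 4.61 and 3.92 FPKM. Depth was estimated at 10300000 and 10400000 fragments, and 11921 and 11861 genes reached 1 FPKM. In bulk RNA, fewer cells of a type and less RNA per cell cannot be told apart.

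The A549 libraries were close to each other. Each gene was summarised as log2((malin + 1)/(empty vector + 1)) from its FPKM values, called the log2 ratio here, which understates changes of low genes. Its median over the 8599 genes was 0.00058 and its SD 0.16, and 95.5% of genes lay within 1.25-fold. The SD was 0.14 in the H1299 pair (8696 genes) and 0.39 in the pair labelled H2030 (9532 genes). At least 1.5-fold higher in the malin library were 27 genes (0.314% of genes) and at least 1.5-fold lower were 24 (0.279%). At 2-fold the counts were 4 higher and 4 lower (0.0465% each). The SD narrowed with level, from 0.20 at 5 to 10 FPKM to 0.12 at 100 FPKM or more, where the typical counting error was 0.14 and 0.036 on the same log2 scale. The 95% counting interval left out a ratio of 1 for 1694 of 8548 genes with an interval (19.8%), so an interval that leaves out 1 is common over all genes and is no sign of a replicated difference. Close to the 1.5-fold line, KTI12 (log2 ratio 0.61) and AGR2 (-0.59) lay inside and COPZ2 (0.58) and PLXND1 (-0.57) outside. Close to the level filter, ATP7A and CNTLN had means of 5 FPKM and STK36 and TLR6 means of 4.995 and 4.99 FPKM.

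**Figure D1:**
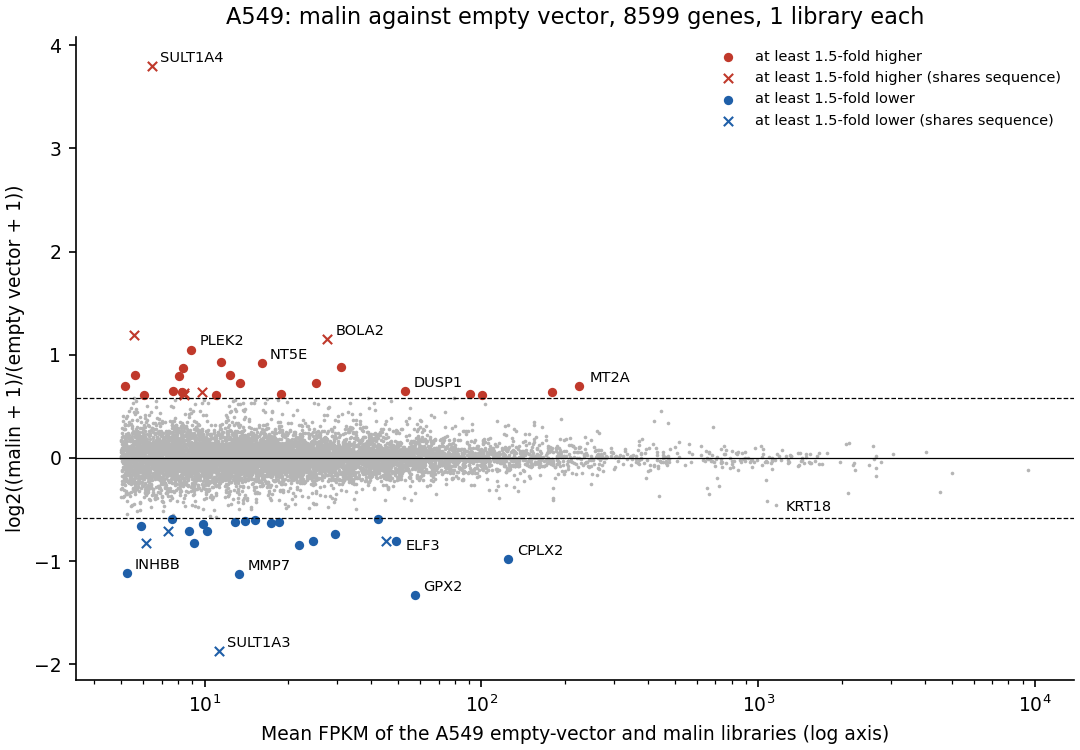
Log2 ratio of malin over empty vector in A549 (vertical axis) against the mean FPKM of the 2 libraries (horizontal, log axis) for 8599 genes, 1 point per gene. Dashed lines mark 1.5-fold, coloured points lie past it (27 higher, 24 lower), and crosses are genes that share sequence with other genes, among them SULT1A4 and SULT1A3 at the extremes.

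Among the genes leading the higher side, PLEK2, a pleckstrin-family protein of the actin-bound membrane (chr14:67386984-67412165, GRCh38.p14), was at 5.47 FPKM with the empty vector and 12.4 with malin, a ratio of 2.27 (interval 1.73 to 2.97). SPOCK1, a matrix proteoglycan, was at 7.57 and 15.34 FPKM, a ratio of 2.03 (1.79 to 2.30). NT5E, the surface enzyme CD73 that makes adenosine from AMP, was at 10.83 and 21.35 FPKM, a ratio of 1.97 (1.54 to 2.55). In each of these genes the malin library was the higher one.

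Further genes on the higher side had like ratios. GREM1, a secreted antagonist of BMP ligands, was at 3.81 and 7.41 FPKM. BCL2A1, an anti-apoptotic BCL2 protein induced by NF-kB, was at 5.59 and 11.09 FPKM. ANPEP, the surface aminopeptidase N, was at 8.74 and 15.99 FPKM, and COL6A1, a collagen VI chain, at 9.87 and 17.01 FPKM. These pairs differed by ratios of 1.72 to 1.98 with malin as the higher library. SLC26A2, a sulfate transporter needed for matrix proteoglycans, was at 18.81 and 31.75 FPKM. ADAM19, a membrane protease, was at 3.71 and 6.64 FPKM, and P4HA3, a collagen prolyl hydroxylase subunit, at 5.8 and 9.65 FPKM. MT2A, a metal-binding metallothionein, was one of the more abundant, at 172.38 and 279.49 FPKM. DUSP1, a phosphatase that turns off MAP kinases and is itself an early response gene, was at 41.03 and 64.82 FPKM. EFEMP1, a fibulin of the matrix, was at 6.26 and 10.29 FPKM and AAMDC at 5.64 and 10.5 FPKM. EFEMP1 and AAMDC rest on at most 50 fragments per library, and their intervals reached down to 1.03 and 1.12.

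Among the genes leading the lower side, GPX2, a glutathione peroxidase of epithelia and a target of NRF2 (chr14:64939158-64942745), was at 82.75 FPKM with the empty vector and 32.24 with malin, a ratio of 0.39 (interval 0.344 to 0.442). MMP7, the epithelial metalloproteinase matrilysin (chr11:102520508-102530747), was at 18.65 and 7.99 FPKM, a ratio of 0.428 (0.327 to 0.554). INHBB, the beta-B subunit of activins and inhibins, was at 7.53 and 2.93 FPKM, a ratio of 0.389 (0.305 to 0.497). CPLX2, a complexin that regulates vesicle fusion, was at 166.54 and 83.74 FPKM, a ratio of 0.503 (0.446 to 0.568). ELF3, an ETS factor of epithelial cells, was at 62.56 and 35.32 FPKM, and HILPDA, a lipid droplet protein induced by hypoxia, at 31.72 and 17.76 FPKM. In all of these the malin library was the lower one.

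MTUS1, a microtubule-associated protein, was at 28.41 and 15.39 FPKM, and NMB, the neuropeptide neuromedin B, at 11.96 and 6.31 FPKM. DHRS3, which reduces retinaldehyde to retinol, was at 37.2 and 21.89 FPKM. PDK4, a kinase that restrains pyruvate dehydrogenase, was at 21.32 and 13.38 FPKM. VTN, the adhesive plasma protein vitronectin, was at 12.19 and 7.48 FPKM, and PLA2G4A, the cytosolic phospholipase that frees arachidonic acid, at 15.81 and 9.96 FPKM. RTN4RL2, a Nogo receptor homologue, was at 12.95 and 7.54 FPKM. RAB26, a vesicle GTPase, was at 7.45 and 4.33 FPKM, and CYP2S1, a cytochrome P450, at 22.67 and 14.4 FPKM. These genes had ratios between 0.528 and 0.635. U2AF1L4, a splicing factor, was at 11.12 and 6.44 FPKM, and 67.8% of its exon bases overlap exons of other genes, so its fragments may belong in part to a neighbour. Exon overlap was 28.7% for RTN4RL2, 19.7% for HILPDA, 18.03% for ELF3 and 15.3% for VTN.

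The extremes of the whole distribution were genes with near-identical copies, and their values are uncertain. SULT1A4 was listed at 0 with the empty vector and stood at 12.91 FPKM with malin, while its copy SULT1A3 was at 18.26 and 4.26 FPKM. The sum of both sulfotransferase genes was 18.26 and 17.17 FPKM. BOLA2 was at 16.84 and 38.7 FPKM and its copy BOLA2B at 57.59 and 32.53 FPKM, and their sum was 74.43 and 71.23 FPKM. The readthrough gene FMC1-LUC7L2 was at 8.12 and 4.14 FPKM, and its sum with LUC7L2 was 47.05 and 45.9 FPKM. In each of these cases the sum lay far closer to equal than the single values. PLSCR3, PRKRIP1 and the small nucleolar RNA SNORA73A, which had 3 and 9 estimated fragments, also share sequence. In all, 6 of the 27 higher genes and 4 of the 24 lower ones share sequence with other genes, beside 289 of all 8599 genes. Such genes were thus more frequent past 1.5-fold than over all genes.

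**Figure D2:**
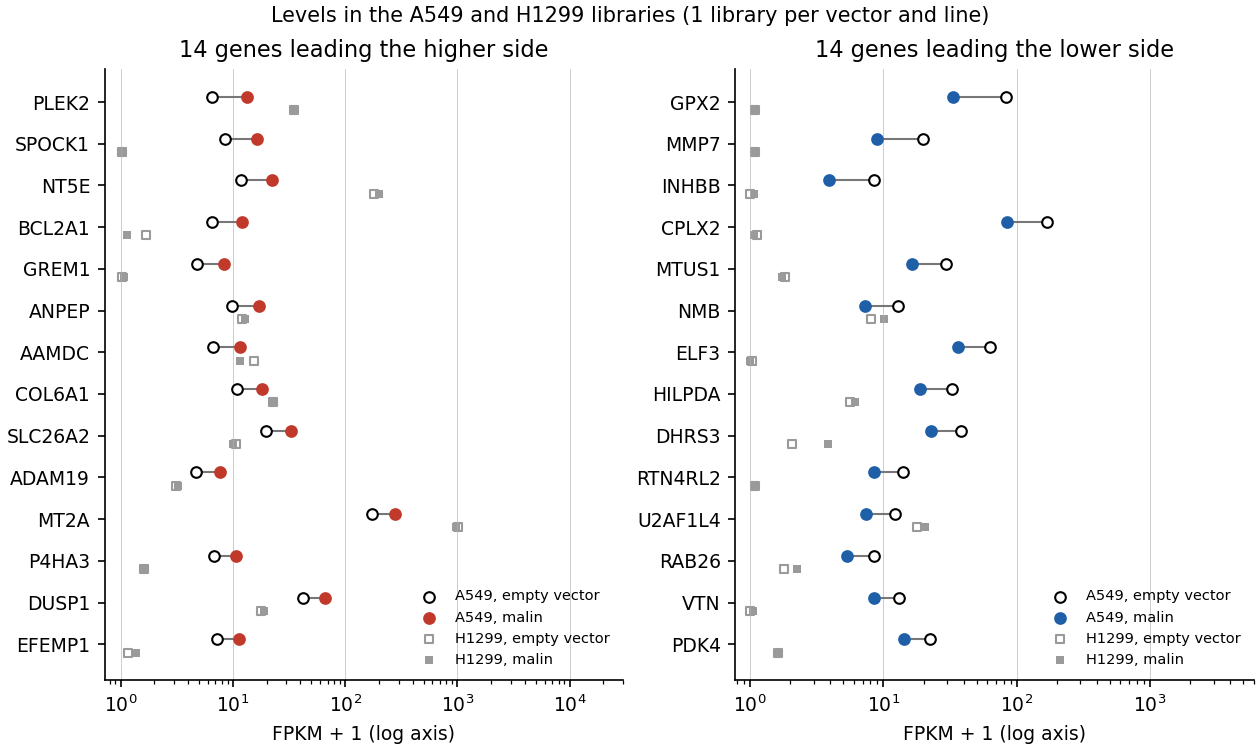
FPKM + 1 (log axis) of 14 leading genes per direction, among those named here that share no sequence with other genes, in the A549 libraries (circles, open for empty vector, filled for malin) and the H1299 libraries (squares), 1 library per point. GPX2, MMP7, INHBB and CPLX2 are below 1 FPKM in both H1299 libraries, whereas NT5E and MT2A are more abundant there than in A549.

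YAP and TAZ target genes were higher with malin nearly throughout. Of 28 listed genes 22 were among the 8599, and 21 of these 22 had a log2 ratio above 0, with a median of 0.31, beside 50.1% of all genes and a median of 0.00058. Past 1.5-fold was 1 of the 22, NT5E. For this list and those below, the shares over all genes were 50.1% above 0 and 49.6% below. Past 1.5-fold they were 0.314% higher and 0.279% lower. AXL, a receptor tyrosine kinase, was at 63.7 FPKM with the empty vector and 95.42 with malin, a ratio of 1.5 (interval 1.42 to 1.58). The matricellular proteins CCN1 and CCN2, known as CYR61 and CTGF, had 27.19 and 39.71 FPKM (CCN1) and 10.82 and 15.95 FPKM (CCN2), with ratios of 1.46 and 1.47. ANKRD1, a muscle-type ankyrin repeat protein, was at 5.71 and 8.09 FPKM and AMOTL2, an angiomotin that binds YAP, at 25.88 and 34.67 FPKM. FJX1, a secreted kinase-like protein, was at 13.53 and 19.09 FPKM, and GADD45B, a stress-induced adaptor, at 11.44 and 16.12 FPKM. For 16 of the 22 genes the counting interval lay above 1, and for none below, where 19.8% of all genes with an interval left out 1. The gene below 0 was the kinase NUAK2, at 24.18 and 22.25 FPKM, and its interval of 0.833 to 1.02 held 1.

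The regulators themselves were closer to equal. YAP1 was at 25.83 and 26.1 FPKM and WWTR1, which encodes TAZ, at 27.79 and 28.75 FPKM, so both libraries held nearly the same amount. TEAD1 was at 35.68 and 36.82 FPKM, and TEAD4 at 22.42 and 19.76 FPKM. Of 14 Hippo pathway genes 11 were above 0, with a median of 0.08, or 0.014 at a mean of at least 20 FPKM. The scaffold WWC1 (19.27 and 22.63 FPKM) and the kinases LATS1 (4.99 and 5.79 FPKM) and STK4 (12.04 and 13.32 FPKM) were slightly higher, with ratios of 1.11 to 1.17. The scaffold SAV1 was at 6.65 and 7.96 FPKM and the kinase cofactor MOB1B at 4.81 and 5.7 FPKM. None of the 14 passed 1.5-fold.

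The promoters of CCN2, ANKRD1 and TGFB2, 3 YAP and TAZ targets with the core TEAD sequence GGAATG just upstream of the start, are shown because the target list was the most one-sided one. Each line gives the 250 bases before the RefSeq transcription start (GRCh38.p14), 5′ to 3′ on the gene's strand, with GGAATG on either strand in capitals. The windows shown are chr6:131951373-131951622 (minus strand), chr10:90921088-90921337 (minus) and chr1:218345086-218345335 (plus).
CCN2: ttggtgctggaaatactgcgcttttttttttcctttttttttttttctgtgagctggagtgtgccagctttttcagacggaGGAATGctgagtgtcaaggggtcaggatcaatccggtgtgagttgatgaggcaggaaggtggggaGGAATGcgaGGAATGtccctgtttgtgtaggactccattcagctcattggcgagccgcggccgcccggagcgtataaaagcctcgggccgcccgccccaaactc
ANKRD1: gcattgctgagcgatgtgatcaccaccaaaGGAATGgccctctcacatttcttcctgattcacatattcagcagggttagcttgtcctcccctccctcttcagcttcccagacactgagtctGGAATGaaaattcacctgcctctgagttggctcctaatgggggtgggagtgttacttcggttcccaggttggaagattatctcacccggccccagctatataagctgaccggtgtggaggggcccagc
TGFB2: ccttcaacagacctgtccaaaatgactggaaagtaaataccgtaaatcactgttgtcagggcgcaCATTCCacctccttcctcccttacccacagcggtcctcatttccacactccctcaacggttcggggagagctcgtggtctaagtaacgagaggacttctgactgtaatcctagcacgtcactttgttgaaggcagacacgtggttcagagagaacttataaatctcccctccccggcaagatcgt
CCN2 holds 3 matches, ANKRD1 2 and TGFB2 1, the last read on the other strand as CATTCC. Of the 22 target genes 16 had a promoter in the RefSeq table, and 6 of these (37.5%) held GGAATG within 250 bases, against 637 of 7121 promoters (8.95%) of the 8599 genes. The 6 were ANKRD1, CCN2, FOXF2, NUAK2, PTPN14 and TGFB2. Their log2 ratios ran from -0.12 (NUAK2) to 0.52 (CCN2), and so lay on both sides of 0. Of the 17 promoters of genes at least 1.5-fold higher, 1 held GGAATG (5.88%). A match describes the letters in this window and is not a bound site.

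Immediate early and AP-1 genes were mostly higher with malin. Of 27 listed 16 were among the 8599, 13 of them above 0, with a median of 0.25. FOSL1, an AP-1 subunit of the FOS family, was at 38.13 FPKM with the empty vector and 56.27 with malin, a ratio of 1.48 (interval 1.33 to 1.64). JUN was at 10.34 and 14.42 FPKM and JUNB at 16.8 and 20.52 FPKM. FOSL2, another FOS relative, was at 31.05 and 39.16 FPKM, and the serum response factor SRF at 8.27 and 10.29 FPKM. IER5 was at 33.49 and 41.46 FPKM and the zinc-finger factor KLF6 at 13.74 and 16.86 FPKM. The orphan nuclear receptor NR4A1 went the other way, at 9.66 and 7.51 FPKM. FOS itself, outside the filter, was at 0.77 and 0.66 FPKM and EGR1 at 0.23 and 0.64 FPKM, so these early response genes were almost silent in both libraries, whereas IER3 was at 71.69 and 76.73 FPKM and IER2 at 34.55 and 32.34 FPKM. None of the 16 passed 1.5-fold. The AP-1 sequence TGANTCA, which is the same on both strands apart from its middle base, stood in 0 of 12 available promoters of these genes and in 236 of 7121 (3.31%) overall.

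Mesenchymal genes were higher and epithelial ones lower with malin, though not in every member. Of 31 mesenchymal genes 21 passed the level filter, 19 of them above 0, with a median of 0.30, and 2 passed 1.5-fold, COL6A1 among them. CDH2, the mesenchymal cadherin, was at 12.13 FPKM with the empty vector and 18.37 with malin, a ratio of 1.51 (interval 1.36 to 1.69). Its log2 ratio of 0.56, which includes the pseudocount, did not reach 1.5-fold. TPM1, an actin-binding tropomyosin, was at 375.26 and 514.34 FPKM and VIM, vimentin, at 614 and 754.57 FPKM. PLAUR, the urokinase receptor, was at 14.67 and 20.4 FPKM, TAGLN, a smooth muscle actin-binding protein, at 11.89 and 16.02 FPKM, and COL5A1 at 10.22 and 13.8 FPKM. The members below 0 were FN1, fibronectin, at 51.22 and 38.24 FPKM, and the transcription factor TWIST2 at 7.49 and 6.32 FPKM, whose interval of 0.613 to 1.15 held 1. The transcription factors ZEB1 (6.58 and 6.66 FPKM) and SNAI1 (3.51 and 3.04 FPKM, outside the filter) differed little.

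Among epithelial junction and keratin genes 12 of 30 passed the level filter, and 8 of these were below 0, with a median of -0.17, or -0.091 at a mean of at least 20 FPKM. The keratins KRT18 and KRT8, which pair in simple epithelia, had 1334.29 and 973.62 FPKM (KRT18) and 1233.79 and 920.54 FPKM (KRT8). Their ratios of 0.73 and 0.746 rest on at least 14804 fragments in each library. KRT7, another simple-epithelial keratin, was at 1301.6 and 1269.11 FPKM and so was near equal. JUP, plakoglobin of desmosomes, was at 63.36 and 47.66 FPKM, PKP3 at 15.85 and 12.15 FPKM and DSP, desmoplakin, at 8.6 and 7.34 FPKM. CLDN1, a tight junction claudin, was higher with malin, at 46.58 and 59.78 FPKM, and so was KRT19, at 41.97 and 48.09 FPKM. CDH1, the epithelial cadherin, was outside the filter at 3.27 and 1.67 FPKM. Of the 12 genes 1, ELF3, was lower by at least 1.5-fold, beside 0.279% of all genes.

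TGF-beta response genes overlapped the mesenchymal list in 7 of 21 members (33.3% of either list), so the lists are not separate evidence. Of the 21, 17 were above 0, with a median of 0.20. The counting interval lay above 1 for 12 of them, where 19.8% of all genes with an interval left out 1. SMAD7, the inhibitory SMAD that the pathway induces, was at 8.5 and 11.71 FPKM. TGFBI was at 369.43 and 472.13 FPKM, PMEPA1, a feedback inhibitor of the receptor, at 47.7 and 60.32 FPKM, ID2 at 117.82 and 143.6 FPKM and COL4A1 at 8.26 and 10.39 FPKM. Each of these was higher with malin, by ratios of 1.22 to 1.38. Of the 4 members below 0, 3 had a counting interval below 1. These were FN1 at 51.22 and 38.24 FPKM, TGFBR2 at 36.75 and 33.27 FPKM and BHLHE40 at 47.09 and 43.72 FPKM. The other was SMAD6 at 22.96 and 21.15 FPKM.

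Genes of the actin cytoskeleton and focal adhesions shifted together by a small amount. Of 22 members 20 were above 0, with a median of 0.13, and 16 had a counting interval above 1. Over all genes 19.8% of intervals left out 1, and the intervals of abundant genes such as these are narrow. MYH9, non-muscle myosin, was at 109.07 and 135.15 FPKM, VCL, vinculin, at 71.51 and 88.81 FPKM, and FLNA, filamin A, at 238.44 and 285.01 FPKM. ZYX and PXN, the adhesion proteins zyxin and paxillin, had 65.88 and 81.45 FPKM (ZYX) and 53.82 and 66.29 FPKM (PXN). CORO1C was at 81.85 and 103.21 FPKM and PDLIM7 at 19.72 and 24.92 FPKM. PDLIM5, a LIM protein of actin bundles, was lower, at 32.68 and 23.23 FPKM. Of 14 integrin and laminin subunits 9 were above 0, with a median of 0.12. ITGA2 (16.11 and 21.94 FPKM) and ITGAV (56.5 and 75.49 FPKM) were higher, whereas ITGB5, a partner of ITGAV, was lower at 159.99 and 139.29 FPKM. ITGA5, the fibronectin receptor subunit, was at 20.31 and 24.64 FPKM and ITGA3 at 120.77 and 145.16 FPKM.

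The plasminogen system was higher with malin at several steps. PLAU, the protease urokinase, was at 79.51 FPKM with the empty vector and 122.09 with malin, a ratio of 1.54 (interval 1.45 to 1.63). Its inhibitor SERPINE2 was higher as well, at 84.54 and 121.88 FPKM, and so was its receptor PLAUR. TIMP2, an inhibitor of metalloproteinases, was at 78.42 and 94.27 FPKM and ADAM17, the sheddase of TNF and of EGF-family ligands, at 25.18 and 28.99 FPKM. Of the 11 measured genes of this list 9 were above 0, with a median of 0.20, and MMP7 and MMP24 (17.17 and 15.13 FPKM) were below. Exons of other genes overlap 28.7% of PLAU and 28.5% of ADAM17.

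**Figure D3:**
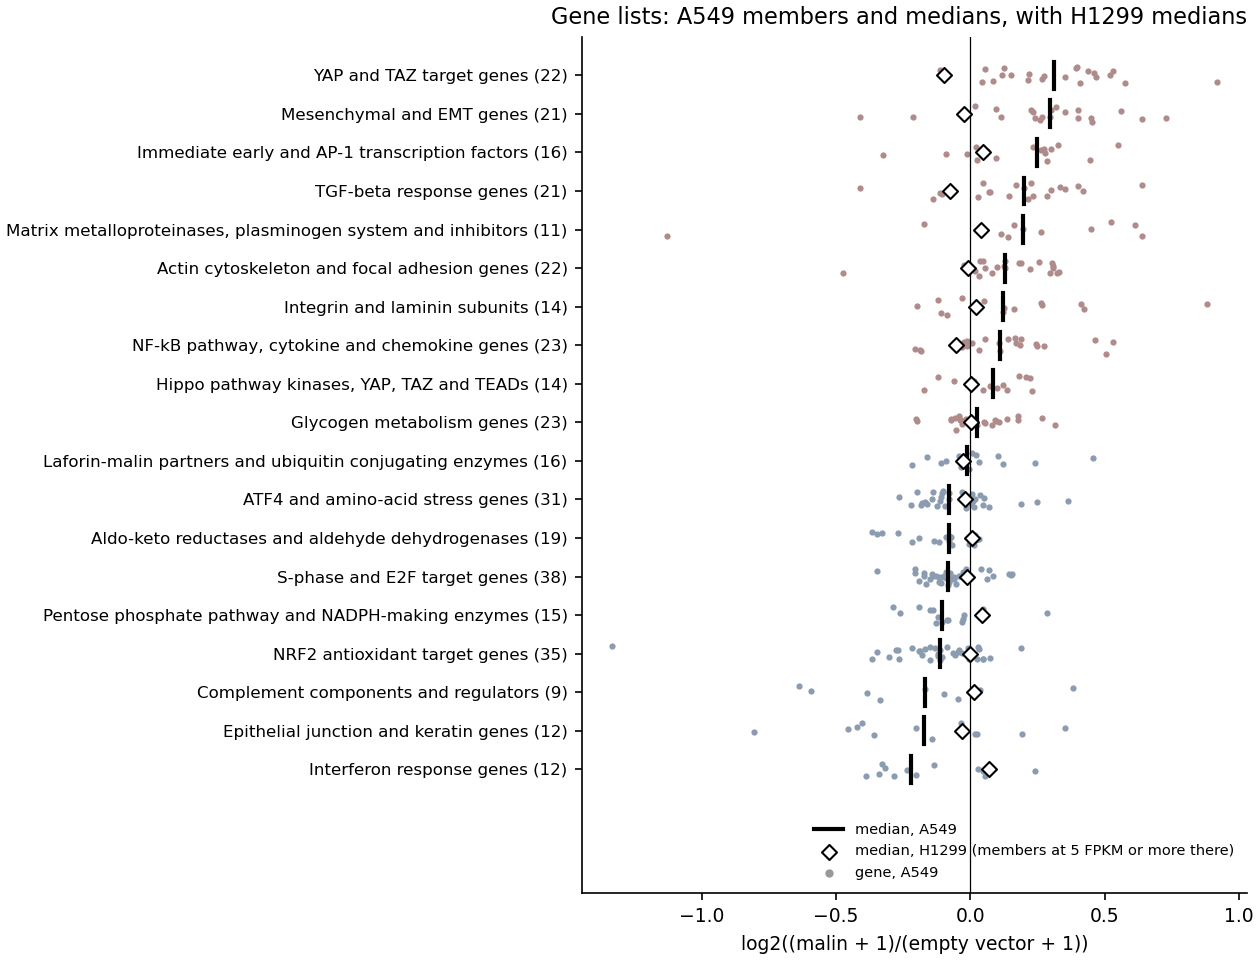
Log2 ratio in A549 of each gene (points) of the 19 lists described, with the list median (bars) and A549 member numbers in brackets. Diamonds give the H1299 median over the list members at 5 FPKM or more there. YAP and TAZ targets have the highest A549 median (0.31) and interferon response genes the lowest (-0.22), while the H1299 medians lie between -0.098 and 0.070.

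NRF2 target genes were lower with malin as a group, by little apart from GPX2. Of 37 listed 35 were among the 8599, 28 of them below 0, with a median of -0.11, where 49.6% of all genes were below 0. GPX2 was the 1 member past 1.5-fold. AKR1C2 and AKR1C3, aldo-keto reductases that act on steroids, had 494.67 and 383.89 FPKM (AKR1C2) and 786.15 and 652.09 FPKM (AKR1C3), and AKR1B10 had 1143.7 and 982.39 FPKM. AKR1C2 shares sequence with AKR1C1 (196.27 and 171.82 FPKM), so their split is uncertain, and both were lower with malin. ALDH3A1, an aldehyde dehydrogenase, was at 740.93 and 582.05 FPKM, a ratio of 0.786 (interval 0.765 to 0.806). EPHX1, microsomal epoxide hydrolase, was at 69.95 and 57.59 FPKM and CYP4F11 at 11.59 and 9.21 FPKM. GCLC, the catalytic subunit of the rate-limiting enzyme of glutathione synthesis, was at 102.73 and 85.26 FPKM, and its partner GCLM at 66.86 and 60.91 FPKM. The ferritin chains FTH1 and FTL had 5247.25 and 4724.79 FPKM (FTH1) and 9809.61 and 9069.14 FPKM (FTL). The malin library was the lower one in all of these.

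Not all NRF2 targets followed. NQO1, a quinone reductase, was at 881.32 and 811.38 FPKM, but HMOX1, heme oxygenase, at 259.14 and 248.94 FPKM, had an interval that held 1. SLC7A11, the cystine importer, was higher with malin at 42.17 and 48.19 FPKM, and TXNRD1, thioredoxin reductase, at 746.01 and 784.32 FPKM. The regulators NFE2L2, which encodes NRF2 (46.18 and 44.83 FPKM), and KEAP1 (37.41 and 37.14 FPKM) were near equal. In total 21 members had a counting interval below 1 and 3 above, where 19.8% of all genes with an interval left out 1. Many members are abundant, which narrows their intervals, so small departures can leave out 1.

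**Figure D4:**
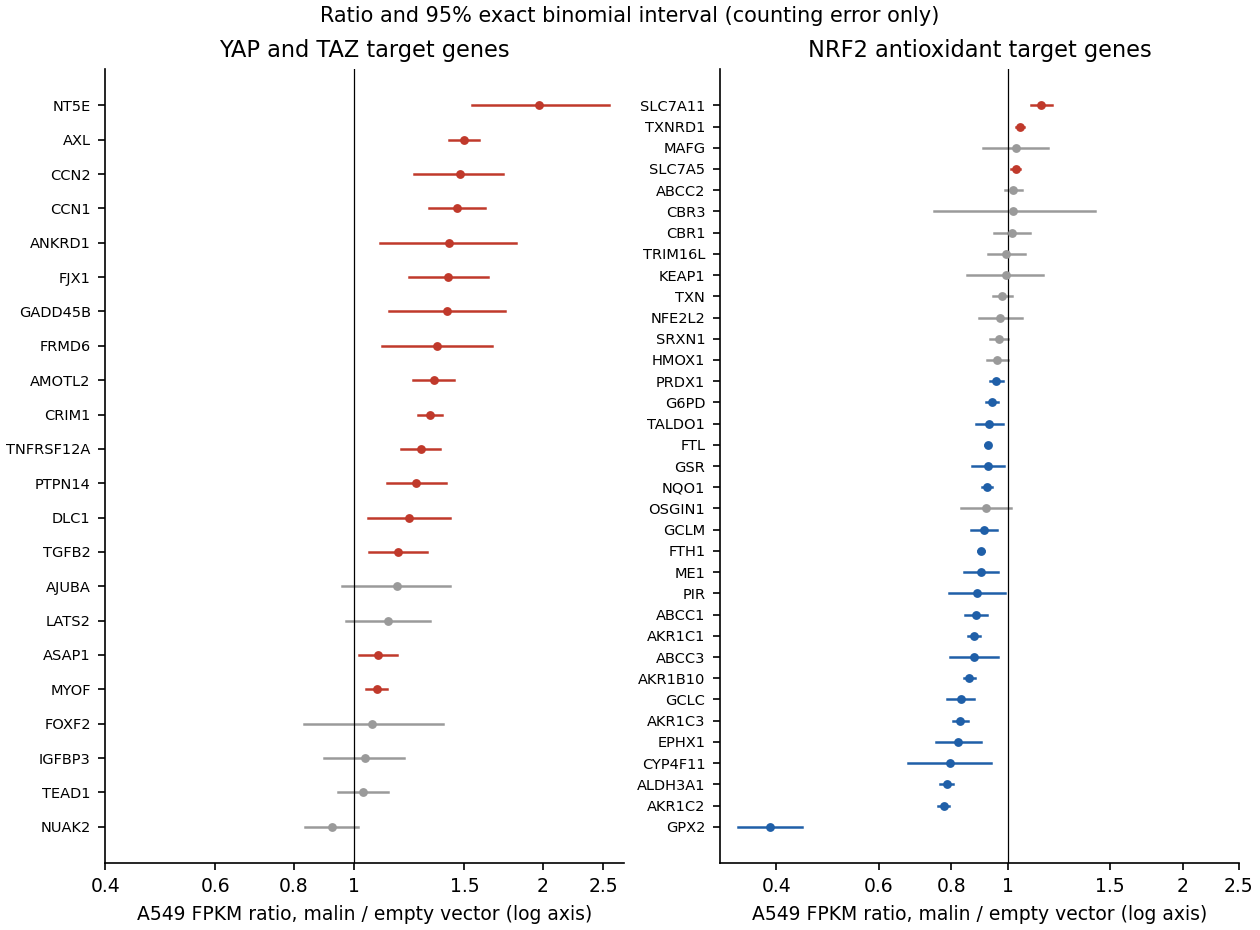
FPKM ratio of malin over empty vector in A549 (log axis) with its 95% exact binomial interval, which covers counting error only, for the 22 YAP and TAZ targets and the 35 NRF2 targets. Red intervals lie above 1 (16 and 3 genes), blue ones below 1 (0 and 21 genes) and grey ones hold 1. Over all genes 19.8% of intervals left out 1.

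The promoters of GPX2, GCLM and ME1, 3 targets that were lower with malin, are shown for the antioxidant response element core TGACNNNGC. NRF2 and a small MAF protein bind this sequence. The 3 were taken from the target promoters that hold the core, so their matches are no result. The letters are again the 250 bases before the RefSeq start (GRCh38.p14), with the match on either strand in capitals. The windows are chr14:64942746-64942995, chr1:93909431-93909680 and chr6:83431052-83431301, all on the minus strand.
GPX2: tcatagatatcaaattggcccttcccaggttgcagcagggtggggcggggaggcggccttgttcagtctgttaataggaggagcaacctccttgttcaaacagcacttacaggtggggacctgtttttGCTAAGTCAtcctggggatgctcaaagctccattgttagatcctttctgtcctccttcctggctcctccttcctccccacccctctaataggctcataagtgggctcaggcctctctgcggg
GCLM: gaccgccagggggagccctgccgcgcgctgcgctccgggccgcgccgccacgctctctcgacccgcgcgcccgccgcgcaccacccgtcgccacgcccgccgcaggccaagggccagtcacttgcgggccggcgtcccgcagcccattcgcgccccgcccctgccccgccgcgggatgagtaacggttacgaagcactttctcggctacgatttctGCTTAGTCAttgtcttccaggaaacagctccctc
ME1: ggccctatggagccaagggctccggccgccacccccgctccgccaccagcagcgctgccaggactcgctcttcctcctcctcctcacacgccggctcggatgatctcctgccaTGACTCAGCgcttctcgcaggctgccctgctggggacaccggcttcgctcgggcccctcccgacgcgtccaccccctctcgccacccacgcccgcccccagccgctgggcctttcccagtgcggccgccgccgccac
Each holds 1 match. That of ME1 also contains the AP-1 sequence TGANTCA, which overlaps the element. Of 23 available NRF2 target promoters 6 (26.1%) held the core, against 873 of 7121 (12.3%) overall. The core also stood in 5 of 17 promoters (29.4%) of genes at least 1.5-fold higher and in 1 of 20 (5%) of those at least 1.5-fold lower. Among the 6, GPX2 had the lowest log2 ratio (-1.33) and TXNRD1 one above 0, so promoters with the same core stood beside ratios on both sides of 1. Elements farther upstream were not searched.

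Enzymes that make NADPH had the same direction as the NRF2 list, with which they share 3 genes (20% of the 15). Of 15 members 13 were below 0, with a median of -0.10. PGD and TKT of the pentose phosphate pathway had 719.49 and 589.43 FPKM (PGD) and 754.42 and 659.86 FPKM (TKT). ME1, malic enzyme, was at 53.18 and 47.85 FPKM and IDH1, the cytosolic isocitrate dehydrogenase, at 100.43 and 83.63 FPKM. IDH2, its mitochondrial relative, was higher at 16.11 and 19.83 FPKM. Of 19 aldo-keto reductases and aldehyde dehydrogenases 14 were below 0, with a median of -0.082, and 5 of the 19 (26.3%) are also NRF2 list members, so the lists are not separate evidence. They include ALDH4A1 at 7.36 and 5.66 FPKM. ALDH1A1, one of the most abundant A549 messages, was at 2243.46 and 2133.45 FPKM. None of the genes of the pair of lists passed 1.5-fold.

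Inflammatory and secreted defence genes split in direction. Of 23 NF-kB pathway, cytokine and chemokine genes 16 were above 0, with a median of 0.11. CXCL3, a neutrophil-attracting chemokine, was at 8.25 FPKM with the empty vector and 12.37 with malin. NFKBIE, an inhibitor of NF-kB that is also its target, was at 6.08 and 9.04 FPKM, BIRC3, an inhibitor of apoptosis, at 17.96 and 25.14 FPKM, and NFKB2 at 56.11 and 68.05 FPKM. TNFAIP2 was lower, at 111.95 and 96.91 FPKM. Of 12 interferon response genes 8 were below 0, with a median of -0.22, which was -0.095 at a mean of at least 1 FPKM and -0.14 with a pseudocount of 5. OAS1, an antiviral RNA sensor, was at 7.8 and 5.72 FPKM, and its interval was among the 2 of the list that left out 1, while the other 10 held 1. IRF9 (5.9 and 4.54 FPKM) shares 93.5% of its exon bases with other genes. Of 9 complement genes 7 were below 0, with a median of -0.17 that was -0.34 at a mean of at least 1 FPKM and -0.11 at 20, and 2 passed 1.5-fold (VTN and C5, at 9.4 and 5.89 FPKM). C3 was at 11.61 and 8.66 FPKM and C1S at 28.34 and 22.23 FPKM, both lower with malin. CD59, which protects cells from complement, was higher at 40.73 and 53.38 FPKM.

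Replication and amino-acid stress genes shifted down by small amounts. Of 38 S-phase and E2F target genes 31 were below 0, with a median of -0.082. POLE2, a DNA polymerase subunit, was at 13.85 and 10.66 FPKM, GINS2, a helicase subunit, at 54.11 and 46.73 FPKM, and MCM5 at 61.83 and 55.06 FPKM. Genes of G2 and mitosis had a median of -0.035 over 36 members, 26 of them below 0. Of 31 ATF4 and amino-acid stress genes 19 were below 0, with a median of -0.081. ASNS, asparagine synthetase, was at 64.27 and 55.9 FPKM and PHGDH, the first enzyme of serine synthesis, at 37.43 and 32.85 FPKM. STC2, a secreted stanniocalcin, was higher at 23.56 and 30.62 FPKM. Other genes overlap 79.7% of the exon bases of ASNS.

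Glycogen metabolism, the pathway of malin and laforin, was balanced. Of 23 members 12 were above 0 and 11 below, with a median of 0.024. PPP1R3C, the phosphatase subunit known as PTG that brings the enzyme to glycogen and is a reported malin substrate, was at 5.26 FPKM with the empty vector and 6.79 with malin, a ratio of 1.29 (interval 1.02 to 1.64). GYS1, glycogen synthase, was at 12.51 and 15.26 FPKM, a ratio of 1.22 (1.07 to 1.38). PHKA2, which encodes part of phosphorylase kinase, stood at 5.83 and 4.93 FPKM, and PRKAB1, the AMP kinase subunit that binds glycogen, at 14.91 and 12.85 FPKM. For 19 of the 23 the counting interval held 1. Of 16 genes for partners of malin and for ubiquitin-conjugating enzymes 7 were above 0, with a median of -0.012. HIPK2, a nuclear kinase, was at 10.35 and 14.58 FPKM and UBE2E1, a conjugating enzyme, at 91.92 and 79.01 FPKM. None of the genes of either list passed 1.5-fold.

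Of 46 gene lists 41 had at least 8 measured members, and 17 of these departed from the median of all genes by at least 0.08, 9 upward and 8 downward. The medians of the 22 lists not described lay between -0.062 and 0.078. They include the respiratory chain (0.012 over 34 genes), the proteasome (-0.0071 over 28), the ribosome (-0.018 over 32), cholesterol synthesis (-0.049 over 24), heat shock chaperones (0.0043 over 20) and glycolysis (0.05 over 21).

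The A549 genes past 1.5-fold were set beside H1299, whose pair has its own controls. Of the 24 lower genes 13 were below a mean of 1 FPKM in H1299, and only 6 reached 5 FPKM there. These 13 were AGR2, CPLX2, CYP2S1, ELF3, EVA1C, GPX2, INHBB, MMP7, MTUS1, PDK4, PLA2G4A, RTN4RL2 and VTN. Of the 27 higher genes 20 reached 5 FPKM in H1299, with 11 above 0 and 9 below in that pair and a median of 0.024. Over all 8599 genes, 279 were below 1 FPKM in H1299, and 13 of these (4.66%) were at least 1.5-fold lower in the A549 malin library, beside 0.279% over all genes. In the same class 5 genes (1.79%) were at least 1.5-fold higher, beside 0.314% over all genes, so both directions were more frequent there. Of 761 genes at 100 FPKM or more in H1299, 0 were lower and 4 (0.526%) higher. The SD of the A549 log2 ratio was 0.30 in the first class and 0.12 in the last. Genes that H1299 lacks thus held most of the lower genes, and this was not tested. RNA of a few genes that are abundant in H1299 was near absent from the A549 malin library. Of 8 genes at 50 FPKM or more in H1299 and at most 0.05 FPKM in the A549 empty-vector library, 6 were at 0 in the A549 malin library, and the sum of the 8 was 0.029% of the level in the H1299 malin library. They include GAGE2C, GAGE5, GAGE6 and GAGE8, members of a single family whose values may be uncertain. Outside that family, GTSF1 was at 0 FPKM in the A549 malin library and 74.48 in that of H1299, and TDRD12 at 0.13 and 142.29 FPKM.

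**Figure D5:**
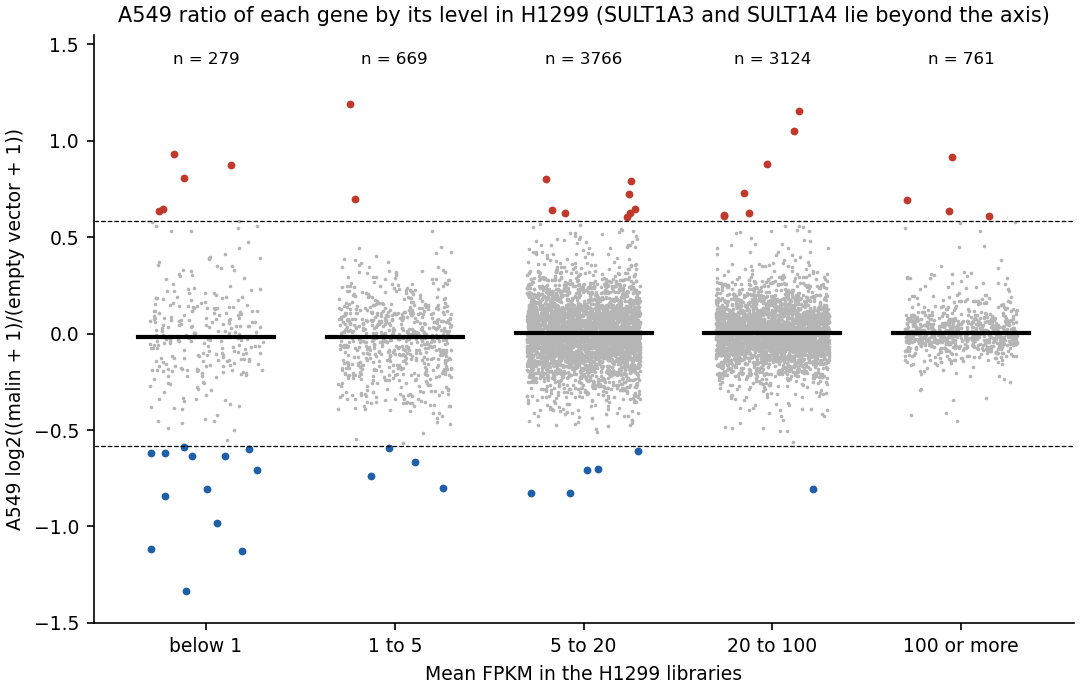
Log2 ratio in A549 of each gene (vertical axis) in classes of its mean FPKM in the H1299 libraries, with the class median (bars), 1.5-fold lines (dashed) and gene numbers. Of the 279 genes below 1 FPKM in H1299, 13 lie below the lower line, against 0 of 761 genes at 100 FPKM or more, and SULT1A4 (3.80) and SULT1A3 (-1.87) fall beyond the axis.

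The lists described were chosen mostly for their departure in A549, so smaller medians of the same lists in H1299 are no result. Cholesterol synthesis genes, for example, had medians of -0.049 in A549 and 0.116 in H1299. YAP and TAZ targets had a median of -0.098 over the 20 members at 5 FPKM or more in H1299, with 4 above 0 and 16 below. CCN1 was at 163.84 and 151.46 FPKM there and CCN2 at 64.5 and 55.96 FPKM, so both were lower with malin in H1299 and higher in A549. NRF2 targets had a median of -0.0014 over 24 members, and mesenchymal genes -0.025 over 14. With 1 pair per line the difference between the lines was not tested. The A549 log2 ratio varied little with position on the genome, transcript length and base composition. Chromosome medians ran from -0.024 (chromosome 9) to 0.029 (chromosome 13). Across 8550 genes, which are not independent replicates and share both libraries, Spearman's rho of the log2 ratio was 0.084 with transcript length and -0.066 with GC content.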

How the data were processed

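Gene-level values of 6 RNA sequencing libraries were used, with groups and cell lines taken from the labels. The authors deposited FPKM values, as the column names say per the file headers. STAR, Cufflinks, cutadapt and FastQC appear in the submitters' processing notes, with hg38 as build. Versions, and whether counting used strand, are not given in the sources used here. Because FPKM divides by library total and transcript length, abundant genes can move the rest, and genes with near-identical copies or overlapping exons can trade fragments between libraries.

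Genes were named by Entrez identifier from the RefSeq table of GRCh38.p14, the same assembly as hg38, so symbols can differ from those deposited. Of the 8599 genes 8385 were protein coding and 17 had no RefSeq entry. Transcript length came from GENCODE release 29 (49 genes had none). A gene was marked as sharing sequence where at least 20% of the 50-base words of its transcripts occur in another gene, or where it is a readthrough or histone gene, which held for 289 genes. Log2((malin + 1)/(empty vector + 1)) was computed with a pseudocount of 1 FPKM on genes with a mean of at least 5 FPKM, and genes were counted past 1.5-fold and 2-fold. No test was run, since each vector had 1 library.

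The deposited FPKM values hold no counts. Low values of genes with 1 transcript clustered at whole multiples of 1 fragment once multiplied by transcript length less 100 bases. In the A549 libraries 81.5% and 80.6% lay within 0.2 of a whole number, where chance gives 40% if the spacing is set beforehand. Here the spacing and the 100 bases came from the values themselves. Exact binomial (Clopper-Pearson) intervals at 95% on fragment numbers from the median transcript length cover counting error only. The scripts were tested on simulated data. Promoter letters are from the RefSeq table, without the 50 bases after the start.

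The genes, the gene lists and the comparison were chosen with earlier results of these data known. Named genes were NHLRC1, EPM2A, the 20 highest and 20 lowest genes, up to 8 members per described list by size of the log2 ratio, and cell type markers. Lists were described where at least 8 members were measured and the median departed by at least 0.08 from that of all genes, together with glycogen metabolism and malin partners. Other genes named beside these were chosen after their values were seen. A few genes that meet these rules are not reported here by name, and remain in all counts and medians. Alternatives were pseudocounts of 0.1 and 5, a mean FPKM of at least 1 or 20, median-of-ratios scaling, quantile normalization, protein-coding genes only, and leaving out genes that share sequence. Software was matplotlib 3.10.9 for figures, and scipy 1.17.1, pandas 2.3.3 and numpy 2.4.6 under Python 3.11.15.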

Additional observations from a re-analysis of the deposited data

Results flagged for a closer look

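For 4 gene lists the median log2 ratio of malin over empty vector had opposite signs in the A549 and H1299 pairs, at least 0.05 from 0 in each. The difference between the lines was not tested, since each line has 1 pair of libraries. YAP and TAZ target genes had medians of 0.31 in A549 and -0.098 in H1299. TGF-beta response genes had 0.20 and -0.075, and NF-kB pathway, cytokine and chemokine genes 0.11 and -0.054. Interferon response genes had -0.22 and 0.070. The H1299 medians cover only the list members at 5 FPKM or more there, so the gene sets differ between the lines. They held 20 of 22 YAP and TAZ, 12 of 21 TGF-beta, 14 of 23 NF-kB and 8 of 12 interferon members. The part of this in the opposite signs was not tested. NHLRC1 was at 6.82 FPKM in the A549 malin library and 119.2 FPKM in that of H1299. The lists were chosen mostly for their departure in A549, so the sizes of the medians in the lines are not compared. The interferon median in A549 was -0.095 at a mean of at least 1 FPKM.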

How the results depend on the processing

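The medians of the 17 lists that departed from that of all genes kept their sign under all 8 alternatives. Each named gene that an alternative left in also kept its sign. For a named gene only quantile normalization could have changed it, since pseudocounts and filters cannot reverse the ratio of 1 gene. The median over all genes lay at most 0.0012 from 0, and median-of-ratios scaling gave a factor of 1 and changed no value. The counts depend on the low genes. Genes at least 1.5-fold higher numbered 27, 41 with a pseudocount of 0.1, 15 with a pseudocount of 5, 73 at a mean of at least 1 FPKM and 8 at 20. Genes at least 1.5-fold lower numbered 24, and 10, 96 and 8 under the last 3 of these. At 2-fold, 4 genes were higher, and 2, 10 and 1 under these 3, and 1 without genes that share sequence. At 2-fold 4 were lower, and 2, 14 and 1 under the same 3. The SD of 0.16 was 0.18 with a pseudocount of 0.1, 0.12 with 5, 0.20 at a mean of at least 1 FPKM, 0.13 at 20, and 0.15 without genes that share sequence. A list median was called moved where it changed by more than the half-width of its 95% counting interval. By this rule the median of YAP and TAZ targets moved (0.24 with a pseudocount of 5, 0.22 at a mean of at least 20 FPKM). That of mesenchymal genes moved as well (0.24 with a pseudocount of 5), and so did the 5 lists that follow. At a mean of at least 20 FPKM the medians were 0.14 for TGF-beta response genes, -0.091 for epithelial genes, 0.16 for integrins and laminins and 0.26 for metalloproteinases and the plasminogen system. Complement genes had -0.34 at a mean of at least 1 FPKM. The other 144 list medians stayed within that half-width. Among them, that of interferon response genes went from -0.22 to -0.095 at a mean of at least 1 FPKM, where more members count. With a pseudocount of 5 it was -0.14. The half-width of this list is wide, at 0.126, so the rule does not show that its median is stable. No paired analysis was possible because each vector had 1 library in A549, and no library could be left out.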

Other observations

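Below 5 FPKM, 3293 genes had a mean of 1 to 5 FPKM, of which 46 were at least 1.5-fold higher in the A549 malin library and 72 lower. Among the 8599 genes above the filter these were 27 (0.314%) and 24 (0.279%), so both directions were more frequent at 1 to 5 FPKM. Counting error grows toward low levels and was already 0.14 (log2) at 5 to 10 FPKM. Its part in the counts below 5 FPKM was not tested. The genes named here were chosen after their values were seen. The fibrinogen chains, liver-type plasma proteins that A549 also makes, were lower together. FGA was at 3.88 FPKM with the empty vector and 0.55 with malin, a ratio of 0.142 (95% counting interval 0.0687 to 0.254), FGB at 0.7 and 0.14 FPKM, and FGG at 1.25 and 0.19 FPKM. FGB and FGG rest on at most 19 fragments per library. LCN2, the siderophore-binding lipocalin, was at 4.46 and 0.9 FPKM, CEACAM6, an epithelial adhesion protein, at 4.95 and 1.92 FPKM, AQP3, an aquaporin, at 3.2 and 1.09 FPKM, and NOTCH3 at 5.08 and 2.5 FPKM. FGA, LCN2 and CEACAM6 were at most at 0.06 FPKM in H1299. On the higher side, HBEGF, a ligand of the EGF receptor, was at 1.64 and 3.32 FPKM, PTX3, a long pentraxin, at 0.85 and 2.61 FPKM, and KRT15, a basal keratin, at 0.5 and 1.54 FPKM.

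Among stretches of 40 neighbouring genes, the lowest median log2 ratio was -0.11, from SEMA3C to BAIAP2L1 on chromosome 7 (80742538 to 98401090, GRCh38.p14), with 28 of 40 genes below 0. The highest was 0.076, from SH3BGRL to PGRMC1 on the X chromosome (81202102 to 119244466), with 28 of 40 above 0. Both stretches were picked as the extremes of all stretches, so the values are a description.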
